A study of Branchiostoma belcheri with 2 samples.

Results

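Amphioxus microRNAs (miRNAs) numbered in the 2000s were followed in the gill of *Branchiostoma belcheri*, the Chinese amphioxus. Members were chosen by name alone, as every probe whose name starts with bbe-miR (designed for *B. belcheri*) or bfl-miR (designed for *Branchiostoma floridae*, the Florida amphioxus) and goes on with a number in the 2000s. The rule gave 48 of the 1686 miRNA probes, out of 260 amphioxus probes in all. They span 21 miRNA numbers, from miR-2013 to miR-2076, with 21 bbe and 27 bfl probes. The study injected adult animals with lipopolysaccharide (LPS), an outer membrane component of Gram-negative bacteria that triggers innate immune responses, or with PBS alone, and took the gills. Per the labels, 15 µl went into the body cavity, with LPS at 1 mg/ml in PBS. One array represents each group. The LPS array is labelled 12 h, the control label states no time, and how many animals contributed RNA is unknown here. No difference between the groups could therefore be tested, and treatment and array cannot be told apart. The array measures miRNAs only, so the tissue was not checked against marker genes.

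A miRNA is cut from a hairpin transcript whose stem yields a pair of short strands, named 5p and 3p after their side of the hairpin. Usually one strand is loaded into an Argonaute protein and the other is degraded. The loaded strand finds messenger RNAs mainly through its seed, bases 2 to 8, and represses them. miRNA numbers follow the order of naming, and miR-2013 is the only number among the members that is also on the array for other animals, namely an acorn worm (sko), a sea urchin (spu) and *Xenoturbella* (xbo).

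The 48 probe sequences held 36 different seeds, and 13 members shared their seed with a probe of another animal. Sequences are the target sequences given in the array files, written 5′ to 3′ with the seed in capitals. Genome positions were not used here. The first set carries the seed AUUGCAC of the miR-25, miR-92, miR-363 and miR-367 families, and is shown because it holds the brightest member and a pair of probes that differ by 1 base:
bbe-miR-2076-5p: aAUUGCACuagagugauuuguu
bbe-miR-2059-5p: uAUUGCACuguuuugcuuuga
bfl-miR-2059-3p: uAUUGCACuuuuuugcuuuga
bfl-miR-2063: uAUUGCACuaauuugcuuuuga

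The second set carries AGCAGCA, the seed of miR-15 and miR-16. It is shown with bfl-miR-2013, which has the same letters starting 1 base earlier and so the seed GCAGCAU of miR-103 and miR-107:
bbe-miR-2064-5p: aAGCAGCAcugugcaacugugu
bfl-miR-2066: aAGCAGCAgugugcagugguga
bfl-miR-2067: aAGCAGCAguaugcaauggug
bfl-miR-2013: aGCAGCAUagugcaaugguguca

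The third set shares GAGAAGU, a seed that joins miR-2057 with miR-2058 and is on no other probe of the array:
bbe-miR-2057-5p: uGAGAAGUuagccaaccauccg
bfl-miR-2057: uGAGAAGUuagccaaccauccgg
bbe-miR-2058-5p: uGAGAAGUaagacuaccaucccg
bfl-miR-2058-5p: uGAGAAGUaagacuaccaucccgu

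The fourth set holds the other probes counted as different between the arrays, with the strands opposite to them. bfl-miR-2068-5p has the seed of miR-202-5p, a miRNA known from the vertebrate gonad:
bbe-miR-2063-3p: aAAAAGCAaaaaguugcaauau
bfl-miR-2068-5p: cUUCCUAUgcacaucuguccuu
bfl-miR-2068-3p: gGACAUGUgugcauagggaaga
bbe-miR-2071-3p: aUGCGGUGcggugguagcaaccg
bfl-miR-2071-5p: aUGCGGUGcggugguagcaaccgu
bbe-miR-2071-5p: aUUGUUACaccgcgccgcaa
bfl-miR-2071-3p: aUUGUUACaccgcgccgcaaaag

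The last set holds the rest of the 10 brightest members. bfl-miR-2061 has the seed of miR-153, a miRNA known from the vertebrate nervous system:
bfl-miR-2061: uUGCAUAGguacauuggucagu
bfl-miR-2065: uGGCAGAGauggcacguugau
bfl-miR-2070-5p: uUUCCACAgccucuacacaugu
bfl-miR-2062-5p: uGCAACAAuauuucaucagugg
bfl-miR-2072-5p: uGCAACAUcacagugaccacau
bfl-miR-2076-3p: cAAAUCACuucagugcaguucu

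Most of these probes gave signal above the detection threshold. Each probe had 2 repeat spots per array, and it was called detected above the intensity that 95% of that array's empty spots stayed under, which was 121.9 for control and 143.5 for LPS. In the control gill 41 of the 48 were detected (85.4%), beside 76.4% of the 212 other amphioxus probes and 31.2% of the 1426 probes of other animals. In the LPS gill 30 were detected (62.5%), beside 51.9% of the other amphioxus probes and 199 of the 1426. All 30 were among the 41, so 11 members passed the threshold in the control gill alone, 0 in the LPS gill alone and 7 in neither. These classes depend on unequal thresholds. bfl-miR-2073 is among the 11 although its LPS mean (142.6) was above its control mean (132.4). Empty spots scattered more widely in the LPS scan (SD 30.5) than in the control scan (SD 10.6), and the part this played in the lower detection was not tested. With thresholds at the 99th percentile of empty spots, 128.1 and 230.2, detection went to 40 and 22 members. Above the highest empty spot of each array, 26 members were detected in the control gill and 21 in the LPS gill.

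In the control gill 20 of the 48 members exceeded an intensity of 1000 (41.7%), beside 26.4% of the other amphioxus probes, and 9 exceeded 10000. The bfl probes gave 14 of these 20 and the bbe probes 6. Brightness depends on how well a probe binds as well as on how much of its miRNA is present, so intensities of different probes are set side by side and are not relative amounts.

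The brightest member was bbe-miR-2076-5p, of the miR-92 seed, with control spots of 41655 and 31541 and LPS spots of 36867 and 37850. Its LPS spots lay between its control spots, and its normalized log2 difference, LPS minus control, was 0.22 ± 0.37. Here and below ± is the SE from the repeat spots, which is technical and says nothing of animals. bfl-miR-2070-5p had control spots of 34089 and 33250 and LPS spots of 34434 and 29730. These overlapped as scanned but not after normalization (0.27 ± 0.11). bfl-miR-2067, of the AGCAGCA seed, had control spots of 22838 and 22484 and LPS spots of 16489 and 13128. Both LPS spots were lower as scanned, and the normalized difference was -0.08 ± 0.17.

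The remaining bright members fell into those with close intensities in both scans and those that were dimmer with LPS. bbe-miR-2071-5p had control spots of 12597 and 12192 and LPS spots of 12154 and 13547, and the spots overlapped as scanned. bfl-miR-2061 also overlapped as scanned, with control spots of 13194 and 10149 and LPS spots of 12866 and 11597 (0.83 ± 0.31). After normalization the spots of bbe-miR-2071-5p and bfl-miR-2061 did not overlap. bfl-miR-2071-3p was slightly dimmer with LPS, with control spots of 11932 and 12400 and LPS spots of 11005 and 11214. bfl-miR-2065 was dimmer too, with control spots of 13533 and 13778 and LPS spots of 10687 and 9979 (0.20 ± 0.04). The gap was wider for 2 of them. bfl-miR-2072-5p had control spots of 12696 and 11771 and LPS spots of 5292 and 4370, so that 39.5% of its control intensity was left (-0.19 ± 0.16). bfl-miR-2062-5p had control spots of 10556 and 10815 and LPS spots of 5838 and 4860, or 50.1% (0.20 ± 0.10). The 10 brightest members were ranked by mean normalized log2 signal over both arrays. After normalization they lay between -0.19 and 0.89 log2 units, and 0 of the 10 reached 2-fold. Without normalization they lay between -1.34 and 0.08, and bfl-miR-2072-5p and bfl-miR-2062-5p reached 2-fold lower.

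The comparison of the arrays addressed which miRNAs of the gill differ after LPS. To be counted, a probe had to be detected in at least one scan and to differ 2-fold or more after quantile normalization. Its normalized repeat spots also had to show no overlap between the scans. Of the 41 detected members, 4 were counted higher with LPS (9.76%) and 1 lower (2.44%). Among all 684 detected probes, 10.5% were higher and 10.5% lower, so the members' share of higher probes was near the background. Among the 163 other detected amphioxus probes, 18.4% were higher and 4.29% lower. The median log2 difference was 0.22 over the 41 members, -0.10 over all 684 probes and 0.15 over the other amphioxus probes. Over the 30 members detected in both scans it was 0.40, with 25 above 0, and over all 303 such probes it was 0.27, with 200 above 0.

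The lower member was bbe-miR-2063-3p. Its control spots were 4322 and 4025 and its LPS spots 311.9 and 287.4, so both LPS spots lay far below both control spots and still above the detection threshold. The normalized log2 difference was -2.44 ± 0.11, a 5.41-fold lower signal. As scanned, 7.18% of its control intensity was left with LPS, whereas the next lowest of the 30 members detected in both scans kept 39.5%. In bulk gill RNA, fewer cells that make the miRNA and less of it per cell cannot be told apart. Its difference stayed between -3.81 and -2.10 under 8 other treatments of the data, among them no normalization (-3.81), loess (-3.19) and the deposited value table (-2.47). After quantile normalization bbe-miR-2063-3p ranked 17 from the lowest of the 303 probes, and 3 from the lowest of the 139 amphioxus probes among them. Without normalization its ranks were 12 and 2. No other probe on the array lies closer to it than 7 edits, where an edit is 1 base inserted, removed or replaced.

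The bfl probe of the same number read differently. bfl-miR-2063 is 12 edits from bbe-miR-2063-3p but 6 edits from its reverse complement, as the opposite strands of one hairpin would be. Its control spots were 5766 and 2206 and its LPS spots 2138 and 2175. The control spots were 1.39 log2 units apart and both LPS spots lay just under the dimmer one, which left the normalized difference of 0.85 ± 0.65 loose. The difference between the probes was -3.29 ± 0.66 log2 units, larger than the scatter of repeat spots. bfl-miR-2063 is 3 edits from bbe-miR-2059-5p, and binding of one miRNA by both probes was not tested.

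The 4 higher members were bfl-miR-2068-5p, bbe-miR-2059-5p and the miR-2071 probes that share one strand, bbe-miR-2071-3p and bfl-miR-2071-5p. bfl-miR-2068-5p had control spots of 556.0 and 584.4 and LPS spots of 701.3 and 698.6. Both LPS spots were the higher ones already as scanned. After normalization it was 2.82-fold higher (1.49 ± 0.03) and ranked 23 from the highest of the 303 probes, or 44 without normalization. Its difference was above 0 under all 8 other treatments, from 0.37 with no normalization to 1.59.

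The other 3 higher members were dimmer with LPS as scanned, and their sign turned with the normalization. bbe-miR-2059-5p had control spots of 3807 and 3523 and LPS spots of 2524 and 3247, and stood at 1.11 ± 0.16 after quantile normalization and at -0.34 without. bbe-miR-2071-3p had control spots of 917.8 and 930.2 and LPS spots of 792.5 and 788.5, and stood at 1.19 ± 0.01 and -0.18. bfl-miR-2071-5p had control spots of 1051 and 996.2 and LPS spots of 876.6 and 838.0, and stood at 1.18 ± 0.08 and -0.22. In none of the 3 did the spots overlap between the scans. All 3 also fell under 2-fold with median scaling, calibration spots and loess. In the deposited value table bbe-miR-2059-5p stood at 1.34, bbe-miR-2071-3p at 0.99 and bfl-miR-2071-5p at 0.95.

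Just under 2-fold were bfl-miR-2076-3p (0.89 ± 0.28), bbe-miR-2071-5p (0.89 ± 0.12) and bfl-miR-2056 (0.86 ± 0.14), and just above it the same 3 members whose sign turned. bfl-miR-2076-3p had control spots of 6594 and 6952 and LPS spots of 5847 and 3745. bfl-miR-2056, whose seed is on no other probe, had control spots of 6970 and 5749 and LPS spots of 4477 and 4077. Both were dimmer with LPS as scanned in all spots, and above 0 after normalization.

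As scanned, 25 of the 30 members detected in both were dimmer with LPS, and the median member kept 77.1% of its control intensity. The 5 brighter ones were bfl-miR-2068-5p (122.8%), bbe-miR-2061-3p (108.9%), bfl-miR-2061 (104.8%), bbe-miR-2071-5p (103.7%) and bbe-miR-2076-5p (102.1%). bbe-miR-2061-3p was dim, with control spots of 175.5 and 163.6 and LPS spots of 178.3 and 190.7 (0.71 ± 0.07).

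The counts turned on the scaling, for members and for all probes alike. With no normalization 0 members were higher and 4 lower, beside 3.65% and 18.7% of all detected probes. The 4 were bbe-miR-2063-3p, bfl-miR-2072-5p, bfl-miR-2062-5p and bfl-miR-2013. Median scaling, which sets the medians over the probes detected in both scans equal, gave 16 higher and 1 lower (background 45.9% and 8.33%). Of the 4 higher ones above, these 16 held bfl-miR-2068-5p alone. Some of the 16, among them bbe-miR-2068-3p and bfl-miR-2073, were not detected in the LPS scan, and this scaling shifts all probes by a constant. With loess 1 was higher, again bfl-miR-2068-5p, and 2 lower (4.82% and 12.3%). The deposited value table gave 8 higher and 1 lower (16.2% and 12.0%), and a normexp offset of 200 gave 2 and 1 (6.43% and 7.46%). With the second repeat spot alone 7 were higher and 1 lower (12.1% and 11.5%). At 1.5-fold 12 members were higher and 2 lower (16.1% and 18.3%), and at 3-fold 0 and 1 (2.63% and 6.58%). The member bbe-miR-2063-3p was counted lower in each of these settings.

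Members that share a seed did not all have the same values. In the AUUGCAC set, bbe-miR-2059-5p was counted higher and bbe-miR-2076-5p and bfl-miR-2063 were not counted. bfl-miR-2059-3p was detected in the control gill only, with control spots of 150.3 and 127.4 and LPS spots of 97.9 and 101.1. Of the 44 other probes with this seed 29 were detected, with 0 counted higher and 9 lower. Among all 684 detected probes 10.5% were higher and 10.5% lower. Over the 25 of these seed probes detected in both scans, the median log2 difference was 0.22. The 44 include several probes of one family, and binding of one miRNA by more than one of them was not tested.

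In the AGCAGCA set all 3 members were dimmer with LPS as scanned and under 2-fold after normalization. bbe-miR-2064-5p had control spots of 1672 and 1469 and LPS spots of 823.0 and 766.5 (0.25 ± 0.10). bfl-miR-2066 had control spots of 7296 and 6918 and LPS spots of 4397 and 4157 (0.68 ± 0.09). The probes bfl-miR-2066 and bfl-miR-2067 are 3 edits apart, and binding of one miRNA by both was not tested. Of the 18 other probes with this seed, 4 were detected.

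The GAGAAGU set was dim throughout. bbe-miR-2057-5p had control spots of 188.2 and 216.6 and LPS spots of 155.0 and 162.3 (0.18 ± 0.11). bfl-miR-2057 had control spots of 210.5 and 208.5 and LPS spots of 177.3 and 194.8 (0.44 ± 0.09). In both, the LPS spots were the lower ones as scanned. bbe-miR-2058-5p (control spots 203.2 and 201.8) and bfl-miR-2058-5p (204.3 and 191.7) were detected in the control gill only. bfl-miR-2061 was bright in both scans, while 0 of the 11 other probes with its miR-153 seed were detected.

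bfl-miR-2013 had control spots of 2369 and 2011 and LPS spots of 1335 and 654.0. Both LPS spots were lower as scanned, but they lay 1.03 log2 units apart, and the normalized difference was 0.09 ± 0.62. The probe xbo-miR-2013, 4 edits away, had a mean of 280.4 in the control gill and 106.3, under the threshold, with LPS. The probe sko-miR-2013, 7 edits away, was detected in the control gill only (139.0), and spu-miR-2013 in neither. Of all 45 probes of other animals numbered in the 2000s, 14 were detected in the control gill and 5 in the LPS gill.

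Probes of the 2 amphioxus species were paired by number, and 12 pairs had sequences of the same strand, within 4 edits of each other. The arm labels were equal in 5 of these pairs, opposite in 4, and missing from one name in 3. The opposite labels were those of miR-2059 and miR-2071, where the bbe 5p sequence matches the bfl 3p sequence and the reverse. Equal arm names therefore did not mean equal strands for these numbers. In 8 of the 12 pairs both probes were detected in at least one scan, and in 3 pairs both were detected in both scans.

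The miR-2071 and miR-2057 probes, which differ in length alone at the 3′ end, gave close values in both scans. bbe-miR-2071-3p and bfl-miR-2071-5p, 1 edit apart with 0 substitutions, had means of 924.0 and 1024 in the control gill and 790.5 and 857.3 with LPS. Their log2 differences were 0.01 ± 0.08 apart. bbe-miR-2071-5p and bfl-miR-2071-3p, 3 edits apart with 0 substitutions, had means of 12395 and 12166 in the control gill and 12850 and 11110 with LPS. Their log2 differences were 0.20 ± 0.13 apart. bbe-miR-2057-5p and bfl-miR-2057, 1 edit apart, had differences -0.26 ± 0.15 apart, the bfl probe having the larger one. 2 more pairs had 0 substitutions and were dim. bbe-miR-2058-5p and bfl-miR-2058-5p had control means of 202.5 and 198.0. bbe-miR-2072-3p, whose start is shifted by 1 base from that of bfl-miR-2072-3p, had a control mean of 138.2, above the threshold, and the bfl probe one of 114.0, below it.

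In a pair that differed by 1 substitution, one probe was detected in both scans and the other in the control gill only, near the threshold. bbe-miR-2059-5p and bfl-miR-2059-3p differ by G10U, the bbe base being given first and positions counted from the 5′ end. The bbe probe had a mean of 3665 in the control gill and 2886 with LPS, and the bfl probe 138.8 and, under the threshold, 99.5. The RNA was that of *B. belcheri*, for which the bbe probe was designed, and the part the substitution plays was not tested. The opposite strand of miR-2059, with A4G, G11U and U20A between the species, was detected with neither probe. bbe-miR-2068-3p and bfl-miR-2068-3p differ by G3A and were near the threshold in the control gill, with means of 126.2 and 120.5.

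The other same-strand pairs were dim. bbe-miR-2060a-3p and bbe-miR-2060b-3p each differ from bfl-miR-2060 by 2 substitutions, C4G and A7G for the a form and C4G and G14A for the b form. Their means in the control gill were 157.4 and 167.9, and that of bfl-miR-2060 was 142.7. With LPS only bbe-miR-2060b-3p was detected of these 3 (145.9). bbe-miR-2060c-3p shares a run of 13 bases with bbe-miR-2060a-3p, starting at base 6 in the c form and base 1 in the a form, so its seed differs. It had control spots of 375.8 and 344.2 and LPS spots of 197.9 and 185.1 (-0.18 ± 0.07). bbe-miR-2070-3p was detected in both scans (157.2 and 148.2), and bfl-miR-2070-3p, 4 edits from it, in neither. bbe-miR-2072-3p was detected in the control gill only (138.2), and bfl-miR-2072-3p in neither. Both probes of miR-2058-3p were detected in the control gill only, with means of 166.9 for bbe and 203.7 for bfl.

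The probes also cover both arms of 12 miRNAs within 1 species. In 9 of these an arm exceeded 500 in the control gill, and the brighter probe was the same in both scans for all 9, being 5p in 7 and 3p in 2. In the other 3 it was the same for 1. These were the miR-2058 pairs and bfl-miR-2059, in which both arms were dim or undetected. Arms are counted by label here, and the brighter miR-2071 strand is labelled 5p in bbe and 3p in bfl.

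For 5 of the 9 the 5p probe was detected in both scans and the 3p probe in neither. bfl-miR-2070 had control means of 33669 for 5p and 117.5 for 3p, and LPS means of 32082 and 103.9. bfl-miR-2072 had 12233 for 5p and 114.0 for 3p in the control gill, and bbe-miR-2059 had 3665 and 104.5. bbe-miR-2064 had 1570 and 106.1, and bfl-miR-2068 had 570.2 and 120.5. In each of these the 3p probe stayed under the detection threshold in both scans, so no change with LPS could be read from it. bfl-miR-2062 was similar, with 10686 for 5p and 139.7 for 3p, the latter detected in the control gill only.

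Both arms were detected in both scans for 3 miRNAs. In bbe-miR-2071, 5p stood at 0.89 and 3p at 1.19, a gap of -0.30 ± 0.12. In bfl-miR-2071, 5p stood at 1.18 and 3p at 0.69, a gap of 0.49 ± 0.10. The order of the arms turned in both species with no normalization, to 0.05 for 5p and -0.18 for 3p in bbe and to -0.22 and -0.13 in bfl. It turned likewise with median scaling, with calibration spots and in the deposited value table, but not with loess, so no order of the arms can be read from these arrays. In bbe-miR-2057 the 3p probe was the brighter one, with control means of 1146 for 3p and 202.4 for 5p. Its arms stood at 0.18 for 5p and 0.55 for 3p, a gap of -0.36 ± 0.23, and without normalization at -0.14 and -0.71, in the opposite order.

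For some numbers the probes of the species were closer to each other's reverse complement than to each other, which is the only basis here for their strand. For miR-2067 the distances were 7 edits to the reverse complement and 13 direct, and for miR-2066, where they separate less, 9 and 11. bfl-miR-2067 was bright, whereas bbe-miR-2067-5p had control spots of 190.9 and 220.1 and LPS spots of 158.2 and 129.6. bfl-miR-2066 was bright as well, whereas bbe-miR-2066-3p had control spots of 208.0 and 195.6 and LPS spots of 153.6 and 196.9. As scanned, the LPS spots overlapped the control spots for bbe-miR-2066-3p and lay below them for bbe-miR-2067-5p. After normalization the spots overlapped for bbe-miR-2067-5p and not for bbe-miR-2066-3p. These bbe probes are 4 edits from each other although one is labelled 5p and the other 3p.

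Of the members not yet described, bfl-miR-2069 had control spots of 1045 and 973.1 and LPS spots of 615.3 and 557.8 (0.57 ± 0.07). bbe-miR-2057-3p had control spots of 1260 and 1032 and LPS spots of 677.3 and 688.8 (0.55 ± 0.20). Both were dimmer with LPS as scanned and under 2-fold after normalization. The 11 members detected in the control gill only had means there between 126.2 and 203.7. No fold is given for them, since their LPS signal was under the LPS detection threshold. The 7 members detected in neither scan had means between 102.5 and 129.3. Probe length did not separate the classes, with a median of 22 bases in each.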

How the data were processed

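Gill RNA was measured on 1 control and 1 LPS array, grouped by the agent in the labels. The labels' protocols describe poly(A) tailing of total RNA and a Cy3 tag. Spot values are median Cy3 intensity per the file headers, without a background column. The deposited value table holds the authors' processed intensity, whose background and scaling steps are unknown here, as are scanner and software. The LPS scan holds 16 spots above 65535, the highest value of the control scan, and may have been rescaled. All 3968 spots were corrected by normexp (offset 50, limma 3.58.1, R 4.3.3), put on the log2 scale and quantile-normalized over the 3372 miRNA spots. The deposited table was read as log2 after adding 50. The alternatives were other offsets, scalings, filters and thresholds, single repeat spots and the deposited table. The counting rule was tested on simulated data.

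No p-value is given, since each group had 1 array, and that number limits the precision. Members, classes and alternatives were chosen with earlier results of these data known. Values were given in full for counted members, the 10 brightest and the 3 nearest to 2-fold on either side. For strand or arm pairs with a detected probe, some LPS values and log2 differences were left out. Other members were given by ranges.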

Additional observations from a re-analysis of the deposited data

How the results depend on the processing

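No paired analysis was possible because each group had 1 array and the labels carry no replicate numbers. The count of higher members (4) became 16 with median scaling, 1 with loess, 0 with no normalization, 2 with an offset of 200, 7 without repeat spot 1, 8 in the deposited table, 12 at 1.5-fold and 0 at 3-fold. The 16 include members not detected in the LPS scan. The count of lower members (1) became 2 with loess, 4 with no normalization and 2 at 1.5-fold. The members' median (0.22) became 0.94 with median scaling, 0.70 with calibration spots, 0.59 in the deposited table and -0.18 with no normalization. The last also turned bbe-miR-2059-5p (-0.34), bbe-miR-2071-3p (-0.18) and bfl-miR-2071-5p (-0.22) below 0. Median scaling and calibration shift all probes of the unnormalized data by a constant. With these and with no normalization, the median over all detected probes was the same as over the members (0.94, 0.70 and -0.18). Above the highest empty spot 26 members were detected in the control gill, in place of 41. Same-strand bbe and bfl pairs had the same sign in 4 of 8, and in 8 with median scaling and 8 with calibration spots. Other causes of these shifts were not tested.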
